A study of Arabidopsis thaliana with 4 samples.

Results

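Cytosolic glycolysis, the chain of enzymes that turns hexose phosphates into pyruvate outside the plastid, was followed step by step in seedlings of the Atdi19-3 mutant and of the wild type. The members are the probe sets that map to exactly 1 of 10 listed loci, which cover the steps from glucose-6-phosphate isomerase to enolase, and 8 probe sets for 8 of the 10 loci were found among 22746 tested probe sets. Of these, 4 were named by the platform annotation (PGIC, PFPB1, TPI and GAPC2) and 4 only through the gene table published with the study (FBA6, FBA8, GAPC1 and PGK3). The rows of that table held here are all higher in the mutant, so the direction of those 4 is no independent evidence. No probe set was matched to IPGAM1 (AT1G09780), a phosphoglycerate mutase, or ENO2 (AT2G36530), the cytosolic enolase.

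Seeds were stratified in the cold for 72 h. Whole seedlings in the Col-0 background were grown for 10 days at 22 °C on half-strength medium with sucrose. The daily cycle was 16 h of light and 8 h of dark, and no further treatment was given. The Atdi19-3 mutant is 1 homozygous T-DNA insertion line of AtDi19-3, a drought-induced zinc finger protein, with the insertion in the fifth exon. The wild type carries no insertion. Each genotype was measured on 2 Affymetrix ATH1 arrays, labelled as biological replicates, and the deposited values are normalized and on the log2 scale, with 1 per probe set.

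In plants glycolysis runs in the cytosol and, with separate isoforms, in the plastid. The cytosolic route receives sucrose carbon as hexose phosphates, yields ATP, NADH and pyruvate for the mitochondrion, and several of its reactions also run backwards in sucrose synthesis. The phosphofructokinase step can be carried by an irreversible enzyme that uses ATP or by a reversible one that uses pyrophosphate. GAPDH and enolase transcripts are abundant in most plant tissues, which is why GAPDH is also used as a control transcript on arrays.

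The arrays of the genotypes stood apart in their controls. The spike-in transcripts, which are added to each hybridization in set amounts, gave lower values in Atdi19-3 for 18 of 18 probe sets, and a value over 4 was reached by 13.5% and 14.1% of tested probe sets on the Atdi19-3 arrays, against 7.10% and 8.34% on the wild-type arrays. An array difference of this kind and the genotype cannot be told apart, and its part in the values below was not tested. Of the tissue markers with a probe set, the leaf gene RCA read 8.38 and 8.56 in Atdi19-3 against 4.33 and 5.65 in the wild type. The root gene DR4 read 6.68 and 7.01 in Atdi19-3 against 3.39 on both wild-type arrays. It is named only through the study's gene table, whose rows held here are all higher in the mutant. The root genes PYK10 and EXPA7, named by the platform annotation, stayed under 3.6 on every array. No seed marker and no probe set for AtDi19-3 itself was matched, so neither could be read. In whole seedlings, fewer cells of a type and less RNA per cell cannot be told apart.

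All 8 members had higher values on both Atdi19-3 arrays than on either wild-type array, and 1 of the 8, PFPB1, passed the test over all probe sets (limma, Benjamini-Hochberg adjusted p under 0.05). Such a gap upwards was found in 28.5% of all tested probe sets, while 3.16% were called higher and 0.602% lower. Among the 2334 probe sets with a mean over 4, such a gap was found in 66.8%, and 14.1% were called higher. The log2 fold changes of the members ran from 0.39 to 3.13, with a median of 2.06, against a median of 0 over all tested probe sets. The probe sets with a mean over 4 had a median of 0.77, and the 5 members among them a median of 2.56. The 4 members named by the platform annotation had a median of 1.19.

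**Figure D1:**
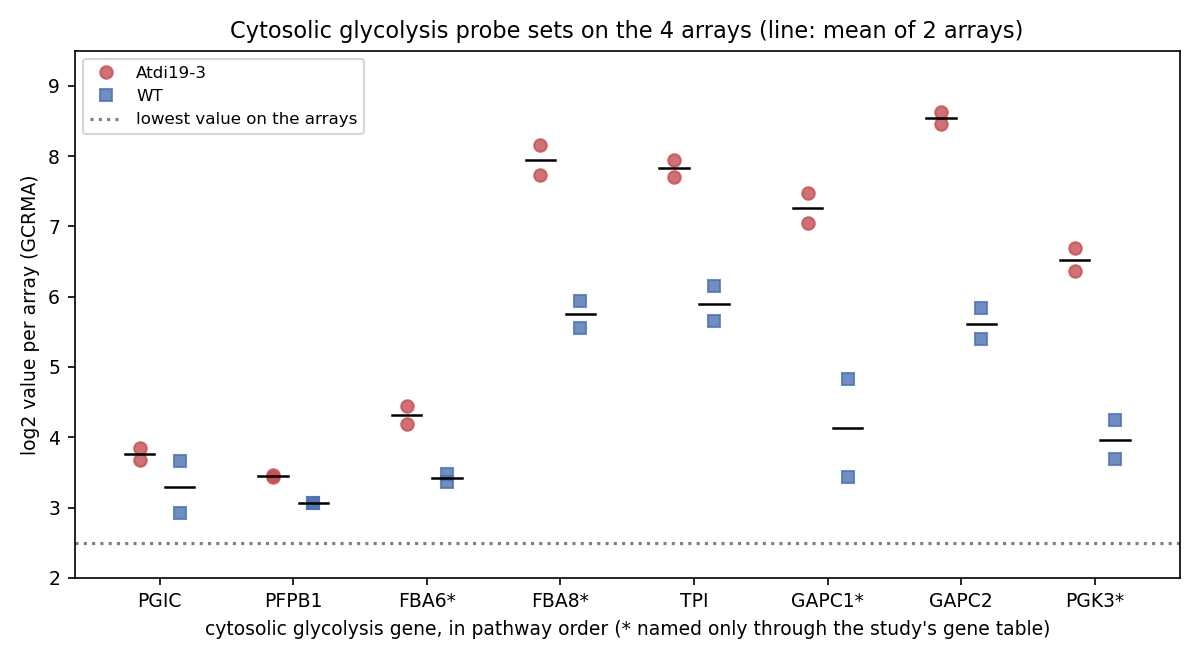
Deposited log2 value (vertical axis) of each cytosolic glycolysis probe set on the 2 Atdi19-3 arrays (red circles) and the 2 wild-type arrays (blue squares), genes in pathway order, with a black line at the mean of 2 arrays and a dotted line at 2.49, the lowest value on the arrays. The genotypes are far apart from FBA8 to PGK3 and close for PGIC, PFPB1 and FBA6, which read under 4.5 on every array.

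Among the members, PGIC and PFPB1 at the first steps showed the smallest differences, and both read under 4 on every array. Genes outside the members did not follow this order of steps. PFPA1, which pairs with PFPB1, had a log2 fold change of 1.85, and the later, enolase-like ENOC had 0.06. PGIC (AT5G42740), the cytosolic glucose-6-phosphate isomerase that interconverts glucose and fructose phosphates, read 3.67 and 3.85 in Atdi19-3 against 3.66 and 2.93 in the wild type. The first wild-type array all but met the lower Atdi19-3 array, with 0.0093 between them. The log2 fold change of PGIC was 0.46 (standard error 0.34, 95% interval -0.76 to 1.69, adjusted p = 0.58 from limma), and the second wild-type array lay near the lowest value of 2.49. It was 0.83 without the first wild-type array and 0.10 without the second, so a single array set its size.

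PFPB1 (AT1G12000), the catalytic beta subunit of the pyrophosphate-dependent phosphofructokinase, read 3.47 and 3.44 in Atdi19-3 against 3.07 and 3.06 in the wild type. It rose 1.31-fold (log2 fold change 0.39, standard error 0.014, adjusted p = 0.028), the smallest change among the 8 members and the only one called. Its wild-type arrays differed by 0.0029, the narrowest pair among the members. With 1 array left out the adjusted p lay between 0.064 and 0.075, but each of these fits sets a single array against a pair and assumes that it varies like that pair, so they say nothing firm about the call.

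Aldolase, which splits fructose bisphosphate into triose phosphates, was measured by 2 genes whose differences were of unlike size. FBA6 (AT2G36460) read 4.45 and 4.19 in Atdi19-3 against 3.37 and 3.47 in the wild type, a log2 fold change of 0.90 (95% interval 0.46 to 1.35, adjusted p = 0.11). FBA8 (AT3G52930) read 8.16 and 7.74 in Atdi19-3 against 5.95 and 5.55 in the wild type, a log2 fold change of 2.20 (95% interval 1.27 to 3.13, adjusted p = 0.091). The intervals overlap slightly, and the difference between the isoforms was not tested. Neither gene passed the test, and in both the genotypes were apart by more than the arrays of a genotype.

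TPI (AT3G55440), the cytosolic triose-phosphate isomerase that interconverts the products of aldolase, read 7.95 and 7.70 in Atdi19-3 against 5.65 and 6.15 in the wild type. Its log2 fold change was 1.92 (standard error 0.25, adjusted p = 0.10). The lowest Atdi19-3 array lay 1.55 above the highest wild-type array, a gap wider than the distance of 0.51 between the wild-type arrays.

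The largest differences stood at the step of the cytosolic, NAD-dependent glyceraldehyde-3-phosphate dehydrogenase, which oxidizes the triose phosphate and makes NADH. GAPC1 (AT3G04120) read 7.47 and 7.05 in Atdi19-3 against 3.43 and 4.83 in the wild type. Its log2 fold change of 3.13 was the largest of the members, and its standard error of 0.66 as well (adjusted p = 0.19), since its wild-type arrays lay 1.40 apart. Without the first wild-type array it was 2.43 and without the second 3.83. GAPC2 (AT1G13440) read 8.63 and 8.45 in Atdi19-3 against 5.40 and 5.83 in the wild type. With a log2 fold change of 2.93 (7.61-fold, standard error 0.21, 95% interval 2.17 to 3.69) it came closest to the threshold without passing it (adjusted p = 0.052). The GAPC1 probe set carries the suffix that the array maker gives to probes shared by several transcripts, so its signal may not come from GAPC1 alone, although the study's gene table lists 1 gene.

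PGK3 (AT1G79550), the cytosolic phosphoglycerate kinase that forms ATP at the next step, read 6.70 and 6.36 in Atdi19-3 against 3.68 and 4.25 in the wild type. Its log2 fold change was 2.56 (5.91-fold, standard error 0.29, adjusted p = 0.090). As with FBA8, TPI and the GAPC genes, the genotypes were separated by a gap wider than the distance between arrays of 1 genotype, here 2.11 against at most 0.57. These 5 genes passed the thresholds of a log2 fold change over 1 and an unadjusted p of 0.05 or less, as did 6.34% of all tested probe sets and 37.0% of those with a mean over 4. In the order of all tested probe sets by log2 fold change, they lay between the 97.9th and the 99.6th percentile. PGIC and PFPB1 lay at the 84.4th and 82.6th, and FBA6 at the 91.9th. Among probe sets with a mean over 4, the upper quartile was 1.59 and the 95th percentile 2.97. FBA8, TPI, GAPC2 and PGK3 lay between these, and GAPC1 above both.

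**Figure D2:**
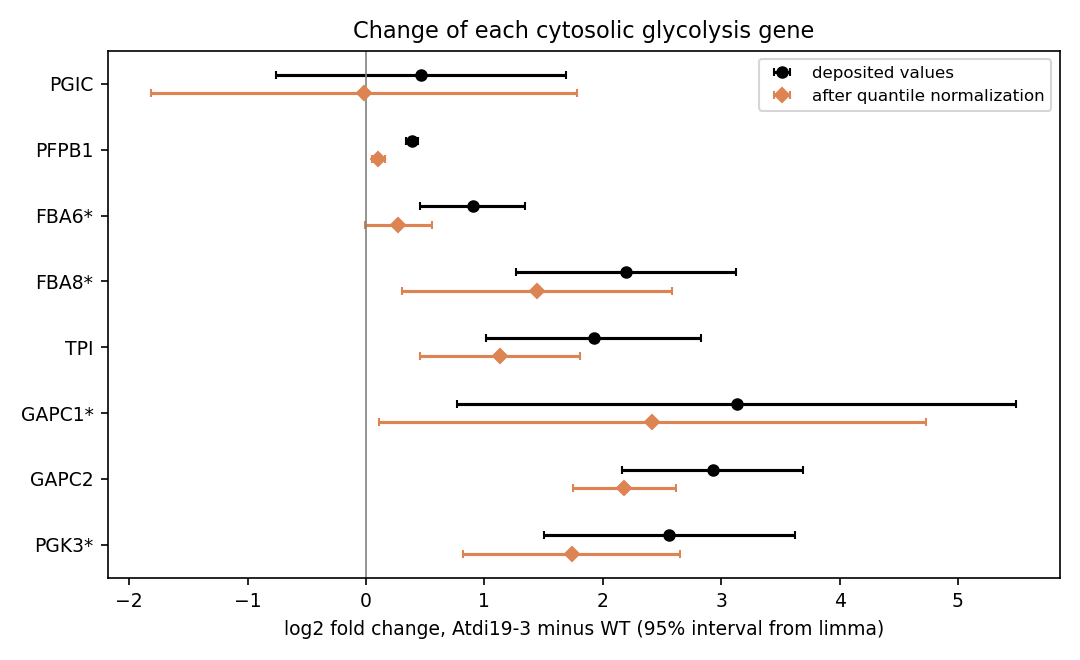
Log2 fold change, Atdi19-3 minus wild type (horizontal axis), of each cytosolic glycolysis gene with its 95% interval from limma, for the deposited values (black circles) and after quantile normalization (orange diamonds), with an asterisk on genes named only through the study's gene table. Every estimate is smaller after normalization, and PGIC then lies at -0.014.

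The size of these differences depended on how the arrays were set to a common scale. Quantile normalization, which gives the 4 arrays the same distribution, brought the median of the members to 1.29, and 7 of the 8 stayed above 0, as did 49.1% of all tested probe sets. GAPC1 then showed a log2 fold change of 2.42 (adjusted p = 0.21), GAPC2 of 2.18 (adjusted p = 0.052), PGK3 of 1.74 (adjusted p = 0.13) and FBA8 of 1.45 (adjusted p = 0.17). TPI had 1.13 (adjusted p = 0.13), FBA6 0.27 (adjusted p = 0.23) and PFPB1 0.10 (adjusted p = 0.13), and PGIC turned to -0.014. After it limma called 0 members, with 6 of the 8 at an unadjusted p under 0.05, as 22.6% of all tested probe sets were. Over all tested probe sets the calls were 268 higher (1.18%) and 157 lower, against 718 higher and 137 lower on the deposited values.

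The call of single members also depended on which probe sets entered the test. When probe sets with a mean of 3 or less were left out, all 8 members remained in the test and 6 were called higher, and 34.5% of the 6894 probe sets that remained were called higher too. The 6 were FBA6 (adjusted p = 0.018), FBA8 (adjusted p = 0.0078), TPI (adjusted p = 0.0097), GAPC1 (adjusted p = 0.019), GAPC2 (adjusted p = 0.0042) and PGK3 (adjusted p = 0.0071). PFPB1 was not among them (adjusted p = 0.064), with a standard error of 0.11 in that fit. With a prior that follows the mean level, GAPC2 was the 1 member called (adjusted p = 0.048, beside 2.50% of all tested probe sets called higher).

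**Figure D3:**
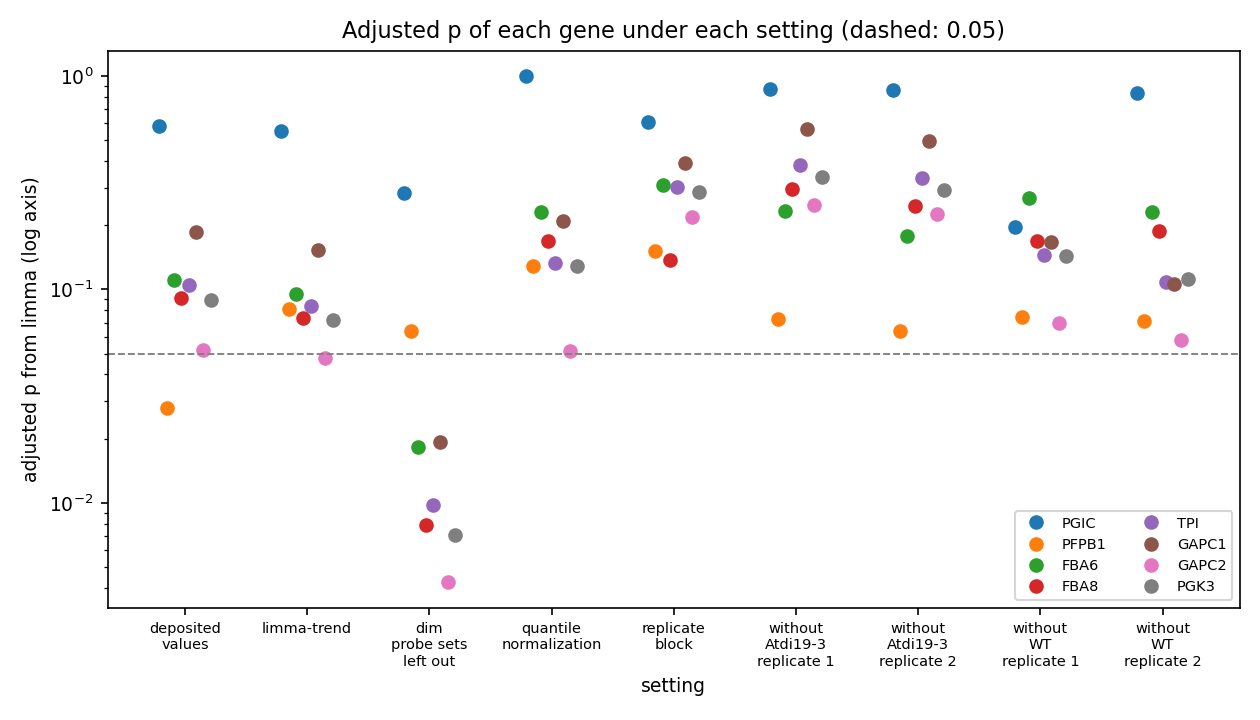
Adjusted p from limma on a log axis (vertical) for each cytosolic glycolysis gene under each setting (horizontal), with a dashed line at 0.05. PFPB1 lies under the line only for the deposited values, GAPC2 under limma-trend, and 6 genes once probe sets with a mean of 3 or less are left out; spike-in centring is not drawn.

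Within a genotype, the members varied more between the wild-type arrays than between the Atdi19-3 arrays, as did tested probe sets with a mean over 4. The median distance between the arrays of a genotype was 0.25 in Atdi19-3 and 0.47 in the wild type for the members. It was 0.18 and 0.29 for tested probe sets with a mean over 4. The distance was wider in the wild type for 5 of the 8 members, and for 1494 of those 2334 probe sets. The first Atdi19-3 array was the higher one for 7 of the 8 members, and for 54.2% of tested probe sets with a mean over 4. The second wild-type array was the higher one for 5 of the 8, and for 62.6% of those probe sets.

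Control probe sets for GAPDH, placed on the array to compare the ends of an abundant transcript, gave further readings of the same enzyme step. Which GAPC locus they detect is not annotated in the sources used here, so they may read the transcripts of GAPC1 or GAPC2. In the newer set the 3′ probe set read 7.44 and 7.69 in Atdi19-3 against 5.84 and 5.77 in the wild type, a difference of 1.76. Its 5′ probe set read 6.86 and 6.91 in Atdi19-3 against 3.08 and 2.88 in the wild type, a difference of 3.90 that the lowest value of 2.49 may limit, since the wild-type arrays lay near it. The genotypes were thus further apart at the 5′ end than at the 3′ end.

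In the older set the differences at the 3 positions did not have the same sign. The 3′ probe set was lower in the mutant, at 6.99 and 6.84 in Atdi19-3 against 7.73 and 8.30 in the wild type, a difference of -1.10. The middle probe set read 6.43 and 6.74 in Atdi19-3 against 4.07 and 4.27 in the wild type, a difference of 2.41, and the 5′ probe set 4.60 and 4.30 against 3.77 and 3.15, a difference of 0.99. After quantile normalization the differences were -1.81 at the 3′ end, 1.54 in the middle and 0.31 at the 5′ end. Centring on the spike-ins, which adds 3.49 to each difference alike, would put the 3′ probe set above 0.

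The 3′ minus 5′ difference, which grows when labelled RNA is short, was 0.58 and 0.78 on the Atdi19-3 arrays against 2.76 and 2.89 on the wild-type arrays in the newer set, where the wild-type values may be limited by the low 5′ readings. In the older set it was 2.39 and 2.54 on the Atdi19-3 arrays against 3.96 and 5.15 on the wild-type arrays. The 5.15 may be limited too, since the 5′ reading of that array was 3.15. With 2 arrays against 2 an exact permutation test cannot give a p under 0.33, so none was run. The narrower difference on the Atdi19-3 arrays stands beside the higher values of GAPC1, GAPC2 and the other members, and its part in them was not tested.

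**Figure D4:**
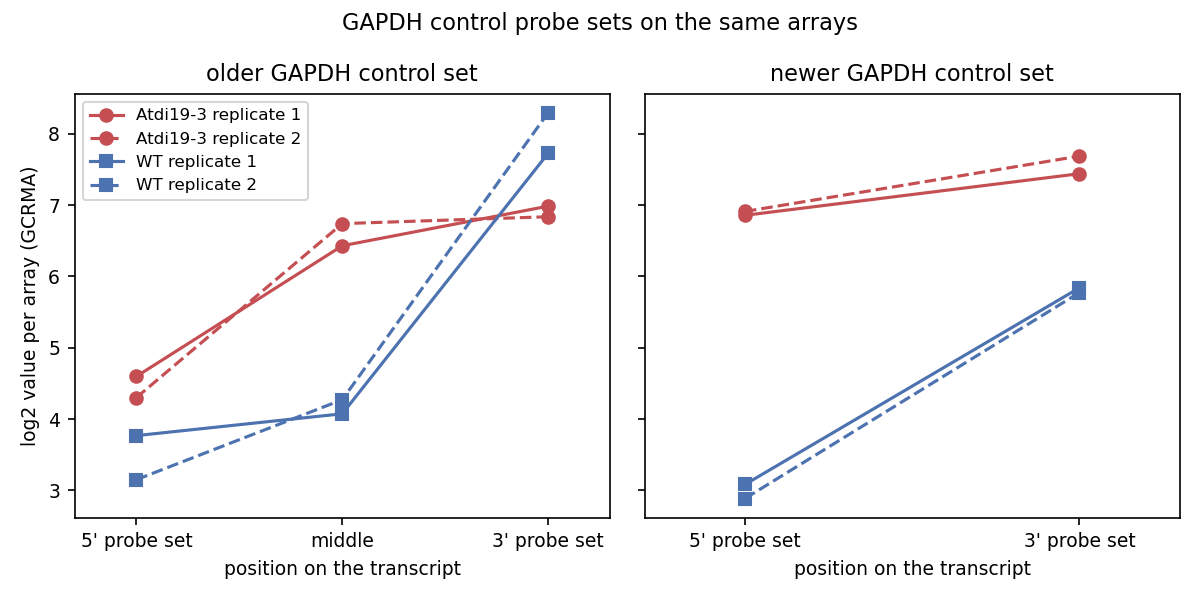
Deposited log2 value (vertical axis) of the GAPDH control probe sets from the 5′ to the 3′ end (horizontal axis) on the Atdi19-3 arrays (red circles) and the wild-type arrays (blue squares), replicate 1 as a solid and replicate 2 as a dashed line, for the older and the newer set. The Atdi19-3 arrays are higher at 4 of the 5 positions and lower at the 3′ probe set of the older set.

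Of 27 other listed genes of cytosolic glycolysis, 13 had a probe set of their own. Of these, 1 was called higher and 0 lower, beside 3.16% called higher over all tested probe sets. The log2 fold changes of the 13 ran from 0 to 1.85 with a median of 0.27, a range that overlaps that of the members. Over the genes named by the platform annotation the median was 0.18, beside 1.19 for the members named in that way. The called gene is HXK1 (AT4G29130), the hexokinase that is also a glucose sensor, which was at least 1.94-fold higher, at 3.82 and 3.69 in Atdi19-3 against 2.80 on both wild-type arrays (adjusted p = 0.045). It is named only through the study's gene table, and its identical wild-type values gave the test no wild-type spread. PFPA1 (AT1G20950), a regulatory alpha subunit that pairs with PFPB1, showed a log2 fold change of 1.85 (adjusted p = 0.079), at 5.30 and 5.01 in Atdi19-3 against 3.15 and 3.46 in the wild type. PFPA2 (AT1G76550), the other alpha subunit, had 0.19 (adjusted p = 0.76) with overlapping arrays, and both alpha subunits are named by the platform annotation. ENOC (AT2G29560), an enolase-like gene also named in that way, had 0.06 (adjusted p = 0.58) with overlapping arrays. After quantile normalization PFPA2 and ENOC had -0.26 each.

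Pyruvate kinase closes the pathway, and 3 of its 6 cytosolic genes with a probe set of their own read at or near the lowest value. The genes AT3G04050 and AT4G26390 read 2.49 on all 4 arrays, and AT3G25960 between 2.52 and 2.62, so a difference was not detectable. AT5G56350 showed a log2 fold change of 0.38 (adjusted p = 0.090), AT5G63680 of 0.27 (adjusted p = 0.44) and AT5G08570 of 0.17 (adjusted p = 0.58). After quantile normalization these were 0.05, 0.02 and -0.33. A probe set shared by the pyruvate kinase genes AT3G52990 and AT2G36580 had 0.80 (adjusted p = 0.093). PFPA2, ENOC and the pyruvate kinase genes were chosen after their values were seen.

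The listed plastid isoforms, pyruvate kinase included, had a median log2 fold change of 2.07, beside 2.06 for the cytosolic members. The members named by the platform annotation alone had 1.19. Both lists draw on rows of the study's gene table, all higher in the mutant, so neither median is independent evidence of direction or size. Of 16 listed, 11 had a probe set. Of these, 5 were called higher and 0 lower. Over all tested probe sets 3.16% were called higher, and 14.1% of those with a mean over 4. Only through the study's gene table are 10 of the 11 named. All 5 called genes are among these 10, so the count is no independent evidence either. At the aldolase step FBA1 rose by 2.49 (adjusted p = 0.028), FBA2 by 1.78 (adjusted p = 0.049) and FBA3 by at least 2.27 (adjusted p = 0.020), beside 2.20 for FBA8 and 0.90 for FBA6, which did not pass. At the dehydrogenase step the plastid genes with a probe set encode the chloroplast NADP-dependent enzyme. GAPCP-1 and GAPCP-2, the plastid NAD-dependent ones, had no matched probe set. GAPB rose by at least 3.58 (adjusted p = 0.010 from limma) and GAPA-2 by 2.22 (adjusted p = 0.047), and GAPA had 1.33 (adjusted p = 0.12). The cytosolic, NAD-dependent members had 3.13 for GAPC1 and 2.93 for GAPC2. All of these are log2 fold changes. GAPB read 4.31 and FBA3 2.99 on both wild-type arrays, so identical values gave their tests no wild-type spread. PGK2 (AT1G56190), the 1 plastid isoform named by the platform annotation, had 2.09 (adjusted p = 0.055) beside 2.56 for PGK3, and TIM had 1.51 (adjusted p = 0.12) beside 1.92 for TPI. The plastid pyruvate kinase genes had the smallest changes of this list, 0.69 for PKP-BETA1 (adjusted p = 0.25) and 0.99 for PKP-ALPHA (adjusted p = 0.32). GAPA, PGK2, TIM and both PKP genes were chosen after their values were seen. Isoforms that serve photosynthesis were not split from this list, so its median does not describe plastid glycolysis alone. The difference between compartments was not tested.

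Around the pathway, 5 of 11 listed genes of sucrose entry and fermentation had a probe set and 0 were called by limma, with 4 at an unadjusted p under 0.05, which 18.5% of all tested probe sets reached. MDH1 (AT1G04410), the cytosolic malate dehydrogenase, had the smallest p, with a log2 fold change of 2.35 (adjusted p = 0.060). PGM3 (AT1G23190), a cytosolic phosphoglucomutase, followed with 0.86 (adjusted p = 0.086). MDH1 and PGM3 are among the 4 of these 5 genes that are named only through the study's gene table. The rows of that table held here are all higher in the mutant. Neither the direction of these genes nor the count under 0.05 is therefore independent evidence.

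**Figure D5:**
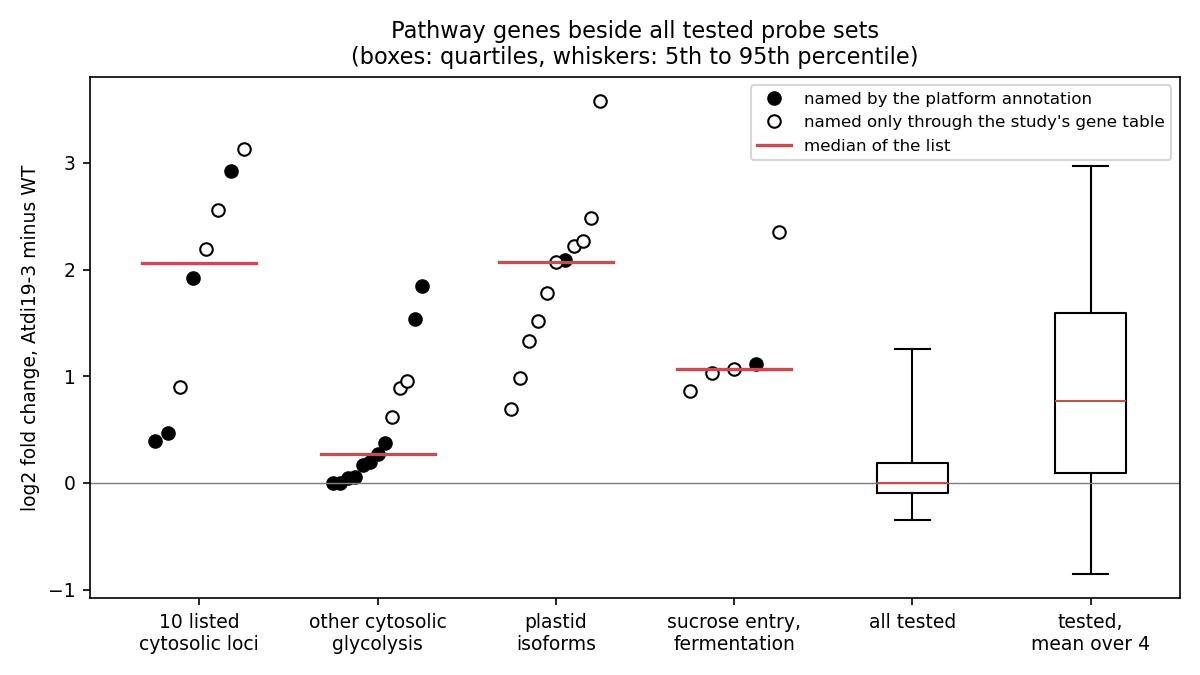
Log2 fold change, Atdi19-3 minus wild type (vertical axis), of each gene of 4 lists, filled where the platform annotation names the probe set and open where only the study's gene table does, with the list median in red, beside boxes (quartiles, whiskers at the 5th and 95th percentile) for all tested probe sets and for those with a mean over 4. The medians are 2.06 for the listed cytosolic loci, 0.27 for other cytosolic genes, 2.07 for plastid isoforms and 1.07 for sucrose entry and fermentation, against 0 and 0.77 in the boxes. In that order 4 of 8, 3 of 13, 10 of 11 and 4 of 5 genes are named only through the study's gene table. Its rows held here are all higher in the mutant, so the medians are not directly comparable with each other or with the boxes.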

How the data were processed

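Biotin labelling of 500 ng total RNA used a protocol that starts at the 3′ end of transcripts. The authors deposited log2 values for 22810 probe sets on 4 arrays, background-corrected and normalized with GCRMA under R 3.4.0 according to the submitters' processing notes. Neither scans nor probe-level intensities were used here. All later steps used limma 3.58.1 in R 4.3.3: with 64 control probe sets set aside, the other 22746 were compared by lmFit and eBayes between Atdi19-3 and wild type, without filter or covariate, and Benjamini-Hochberg adjustment covered them all. The number of arrays, 2 per genotype, limits the precision. A difference was taken as a lower bound where both arrays of the genotype with lower values read under 3 or were identical. Names came from the platform annotation through RefSeq TAIR 10.1 locus tags (13436), and 989 others only through single-gene rows of the study's gene table, of which 1998 rows were held. PFPB1, PGIC, PGK3, PFPA1 and PFPA2 are common names added by locus, where the tables give the locus or another symbol. The named genes are all 10 listed loci, the GAPDH controls and, per further list, the called genes or the 2 with the smallest p. The members and lists were chosen with earlier results of these data known. The fit was tested on simulated data. Alternatives were quantile normalization, spike-in centring, a filter on dim probe sets, limma-trend, the replicate number as a block, and leaving out each array.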

Additional observations from a re-analysis of the deposited data

How the results depend on the processing

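On the deposited values 1 member and 6 other pathway genes were called. Among the 6, HXK1, FBA3 and GAPB read identical values on both wild-type arrays. The counts were 0 and 3 after quantile normalization, 6 and 16 without dim probe sets, 0 and 0 with the replicate number as a block, and 8 and 29 after spike-in centring, which raises every log2 fold change by 3.49 and called 22742 of all probe sets. By a log2 fold change over 1 and an unadjusted p of 0.05 or less, 5 members passed. Leaving out each array in turn, which assumes that the lone array varies like the remaining pair, gave 0 members throughout and 0 to 5 other pathway genes. The replicate block called 0 of all probe sets, with 6 members and 16.0% of all probe sets at an unadjusted p under 0.05, and the same-numbered arrays share only a number (correlation of their deviations 0.017). Over all probe sets limma called 855, against 425 after quantile normalization, 662 with limma-trend, 2563 of 6894 without dim probe sets and 0 to 3654 when an array was left out.

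The median log2 fold change of the members was 2.06, against 1.29 after quantile normalization, 5.55 after spike-in centring, 1.19 over the members named by the platform annotation, and 1.89 to 2.23 when an array was left out. Among the members PGIC alone changed direction, to -0.014 after quantile normalization. Of the other pathway genes, PFPA2 (-0.26), ENOC (-0.26) and AT5G08570 (-0.33) changed direction as well. The genotype difference in 3′ minus 5′ of the GAPDH controls was -2.14 in the newer set, where the low wild-type 5′ readings may limit it. There it was -2.46 after quantile normalization and -2.24 to -2.05 when an array was left out. In the older set it was -2.09 and -2.68 to -1.50, and the low 5′ reading of the second wild-type array may limit it. The cause of these changes was not tested.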
